A study of Mus musculus with 12 samples.

Results

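Some genes have a partner that is transcribed from the opposite DNA strand and does not code for protein. Mouse nomenclature names such a partner after the gene it lies against, with the ending os (opposite strand), os2 or os3. In the deposited expression table, 45 of 9374 rows carried such a symbol and a non-coding RefSeq gene type: 43 long non-coding RNAs, 1 antisense RNA (Zfhx2os) and 1 transcribed pseudogene (Fbxl12os). They were found by mapping each row's NCBI Gene ID to its symbol and gene type, so that Fos and other symbols that only end in those letters stayed out, as did 5 os genes that RefSeq lists as protein-coding (Cebpzos, Brd3os, Cdiptos, Wdr83os and Slc7a6os). The gene on the other strand, called the sense gene here, had a row for 38 of the 45. It had none for Bach2os, Brip1os, Scpep1os, Zfp85os, Ppifos, Zfhx2os and Slain1os. Peak1os, a further named antisense RNA, had no row in the table.

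The samples were neutrophils isolated from the blood of female mice 16 hours after saline or lipopolysaccharide (LPS, a component of the bacterial outer membrane that is sensed by Toll-like receptor 4), the latter at 0.5 mg/kg. WT mice and mice of a line labelled Hmgb1ΔMye, a name used for a deletion in myeloid cells, gave 4 groups of 3 libraries each. Libraries of the Hmgb1ΔMye line are called KO-labelled or KO here, and the groups are WT-Saline and WT-LPS, KO-Saline and KO-LPS. The labels give no age and name neither the Cre driver nor a strain. Nothing in them states that each library of a group is a separate mouse, so the spread behind the p-values is that between these samples alone and could be technical.

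Antisense long non-coding RNAs are usually spliced and polyadenylated like messenger RNAs, and many start close to the promoter of the gene they face. Some have been found to act on that gene, by blocking its transcription, recruiting chromatin enzymes or covering a splice site in its precursor RNA, while many have no known role. The human counterpart of Zeb2os, for example, covers a splice site of ZEB2 and keeps an intron in that message. Where the exons of both partners cover the same bases, a read can be assigned only by its strand. The same holds for antisense exons inside introns of the sense gene, since total RNA can hold unspliced sense RNA. Outside the span of the sense gene and of other genes, position can serve. The library kit named in the labels (Universal Plus Total RNA with mouse probes, Tecan) marks the strand of origin, but the strand setting of the read counting is not given in the sources used here. Whether reads from shared stretches or sense introns were counted on the row of their own strand was not tested. In the deposited table, which holds 1 value per gene and library, such reads cannot be told apart.

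The positions of 43 of the 45 were found in the mm10 annotation GENCODE M21, all but Ggnbp2os and Rbfaos. The 45 genes lay on 15 chromosomes, 12 of them on chromosome 11. Of the 43, 15 lay within the span of the sense gene, 14 overlapped it at the starts of both genes, 9 overlapped it at the far ends, and 1 (Zfp85os) spanned it. A further 3 started beside the sense gene and ran away from it without overlap (Map2k3os, Brip1os and Fam120aos), and Fbxl12os ran towards its sense gene without reaching it. Exons of 35 members shared between 25 and 3255 bases with exons of the sense gene, and 8 shared none. The shared stretch was usually a small part of the antisense RNA, a median of 8.845% of its exon bases, and exceeded 50% in 6 members. In the 15 members within the sense gene, all exon bases lay in its span, so the doubt about sense introns covers their whole length. Exons of 14 members also overlapped a gene other than the sense gene, on the antisense gene's own strand in 3 and on the opposite strand in 12, so their reads carry that further doubt.

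The stretches where both RNAs share exon sequence show part of what the counting had to separate. For 4 pairs to which the results return, they are printed below from the GENCODE M21 transcripts, 5′ to 3′ along the antisense RNA. Capitals mark the bases inside an exon of the sense gene, and small letters the neighbouring antisense exon bases. The Il1bos stretch is the whole first exon of that RNA, chr2:129369897-129369921 on the plus strand of mm10, and lies in a part of an Il1b exon that does not code for protein. The other 3 are read from the minus strand and are complementary to coding sequence: chr11:82960605-82960681 in Slfn5, chr2:44063762-44063834 in Arhgap15 and chr11:119821661-119821744 in Rptor.
Il1bos: AGTCTAGAAGCAGATTCTGGGCCAG
Slfn5os: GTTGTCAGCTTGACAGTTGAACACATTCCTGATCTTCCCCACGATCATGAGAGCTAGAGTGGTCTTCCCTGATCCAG
Arhgap15os: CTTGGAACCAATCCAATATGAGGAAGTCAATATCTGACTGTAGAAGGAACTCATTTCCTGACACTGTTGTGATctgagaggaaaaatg
Rptoros: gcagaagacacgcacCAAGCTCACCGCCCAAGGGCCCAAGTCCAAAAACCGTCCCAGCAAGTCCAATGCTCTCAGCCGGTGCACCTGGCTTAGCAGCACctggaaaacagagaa

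The shared stretch differed widely in weight among these 4. It made up 25 of the 2980 exon bases of Il1bos (0.839%), whose other exon lay outside the span of Il1b. It made up 84 of 1174 exon bases in Rptoros and 73 of 1761 in Arhgap15os. In Slfn5os, 559 of 1102 exon bases (50.7%) faced coding sequence of Slfn5, of which the printed stretch is the first exon.

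The rows of the table held 399702 to 526757 reads per library, which is the number counted on these rows and not the sequencing depth. At these totals 0 reads in a library left room for a level of 5.58 to 8.0 CPM (reads after scaling of all libraries to equal size), taking a floor of 3 reads. All 9 neutrophil markers looked up had rows, with a summed level of 12940 to 17560 CPM in WT-Saline, 18030 to 18430 CPM in KO-Saline and 16870 to 21190 CPM over both LPS groups. Averaged over genotypes, 6 of them rose with LPS, 2 were not called and Csf3r fell (log2 change -1.43, adjusted p = 1.81e-05 in limma). Markers of other blood cells were present at lower levels. The 3 platelet markers with a row, of 7 looked up, summed to 523 to 837 CPM in saline and 161 to 496 CPM in LPS libraries, and all 3 fell. Most of that sum was Gp1ba, with 2419 reads over all libraries, against 116 for Gp9 and 52 for Clec1b. Pf4 and Ppbp, which define platelets, had no row. The B cell marker Cd79a, the only 1 of 5 with a row, rose from 7.30 to 29.6 CPM in saline to 34.7 to 134 CPM in LPS libraries. The 4 monocyte and macrophage markers with a row, which Ccr2 and Cx3cr1 did not have, summed to 353 to 460 CPM in saline and 350 to 640 CPM in LPS libraries. Among them Ly6c2 rose (2.43, adjusted p = 2.78e-06 in limma), and Csf1r (-0.73, adjusted p = 0.00786) and Apoe (-2.98, adjusted p = 0.000121) fell, on the log2 scale averaged over genotypes. The 3 dendritic cell markers with a row, of 5, summed to 58.4 to 212 CPM in saline and 13.0 to 98.7 CPM in LPS libraries, and Clec9a fell (-4.31, adjusted p = 6.72e-06). The part of other cells in the values below was not tested, and in such bulk samples fewer cells of a type and less RNA per cell cannot be told apart. Hmgb1 itself had 100 reads in the 6 WT libraries and 101 in the 6 KO-labelled libraries, so these reads do not show the deletion.

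The library labelled KO-LPS replicate 1 stood apart from its group. Of the 1095 rows that changed with LPS in WT libraries, it lay on the LPS side of the midpoint between the WT groups for 29.5%, against 92.1% and 90.5% for the other KO-LPS libraries and 13.7% to 22.6% for the KO-Saline libraries. Of the 10 antisense rows among them, it lay on the LPS side for 2. Values without it are given below for the counts of calls and for many, not all, of the named members and sense genes in the KO-labelled and averaged comparisons. Leaving it out also changes the estimate of spread that all comparisons share, so that calls in WT can move. The library was singled out by its values in rows that respond to LPS. Fits without it therefore lean towards an LPS response in KO-labelled libraries, and their p-values are descriptive only.

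Named antisense rows were well populated. The members held 52729 reads, 0.986% of all reads, with 14 to 11514 reads per member over the 12 libraries. Their median of 328 reads lay above the median of 136 over all rows, 166 over the 38 sense rows and 155.5 over the 538 other non-coding rows. Of the 45, 28 were at or above the median row, and 13 had 0 reads in at least 1 library.

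Il1bos (chr2:129369897-129375748, plus strand) was the most abundant, with 11514 reads, and ranked 33 among all 9374 rows. Its sense gene Il1b, which codes for the inflammatory cytokine interleukin-1β, had 5132 reads and ranked 140. Next came Atxn7l1os2 with 5453 reads, Brip1os with 5178, Rbm3os with 3674, Rbfaos with 3146 and Uckl1os with 2662. The 10 most abundant members were completed by Slfn5os (2396 reads), Tomm6os (2256), Arhgap15os (1995) and Far1os (1597). At the other end, Map2k3os, which starts beside the gene of the p38-activating kinase Map2k3, and Fam120aos had 14 reads each.

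Antisense rows held more reads than their sense genes in 25 of 38 pairs (65.8%), in 18 of them in every library. The antisense row held fewer reads in every library in 4 pairs, those of Map2k3os, Arhgap27os3, Fam120aos and Sp3os. Over all pairs the median ratio of antisense to sense reads was 2.08. It was at least 2 in 20 pairs and at least 10 in 6. Dhrs13os held 814 reads against 22 for Dhrs13, and Rbfaos 3146 against 93 for Rbfa. Rbm3os held 3674 against 113 for Rbm3, a cold-induced RNA-binding protein, and Tomm6os 2256 against 139 for Tomm6, a subunit of the mitochondrial import pore. Of these 6, Dhrs13os, Uckl1os, Phtf1os and Tomm6os have exons that also overlap a gene other than the sense gene. Rbfaos has no position in GENCODE M21, so its exon overlaps are not known.

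Per kb of exon the difference was wider. Exon length here joins the exons of all GENCODE transcripts of a gene, such as 22046 bases for Lpp and 1603 for Lppos. This lowers the level per kb of genes with many transcripts, and how far it widened the difference was not tested. The antisense row had the higher level in 31 of the 36 pairs with known exon lengths (86.1%), in 24 of them in every library, with a median ratio of 8.86. The level of Rbm3os was 708 CPM per kb against 4.50 CPM per kb for Rbm3, and that of Acss2os 196 against 1.86 CPM per kb for Acss2, an acetyl-CoA synthetase. Il1bos and Il1b were closer, at 743 and 506 CPM per kb, with the antisense row higher in 8 of 12 libraries.

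The order of the levels went with the arrangement of the genes. Where exons overlapped, the antisense row held more reads in 22 of 29 pairs and the higher level per kb in 28 of 29, all but Rab10os at 0.902 times Rab10. Where they did not, it held more reads in 1 of 7 pairs and the higher level per kb in 3 of 7. Those 3 were Rab11fip4os2, Bcas3os2 and Lrp8os2, which lie inside the sense gene, as does Arhgap27os3. Map2k3os, Fam120aos and Fbxl12os lie outside it and had only 14, 14 and 66 reads, so the contrast rests on few and low rows. Map2k3os was the lowest of all relative to its sense gene, with 14 reads against 540 for Map2k3. Pairs that overlapped at their starts had the higher antisense level per kb in 14 of 14, those with the antisense gene inside the sense gene in 12 of 13, and those that overlapped at their ends in 5 of 6. The 296 other pairs of a non-coding and a protein-coding row whose genes lie on opposite strands showed a like pattern, with more reads on the non-coding row in 70.9% and a higher level per kb in 83.4%. No test was made of these shares, since pairs are not replicates.

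**Figure D1:**
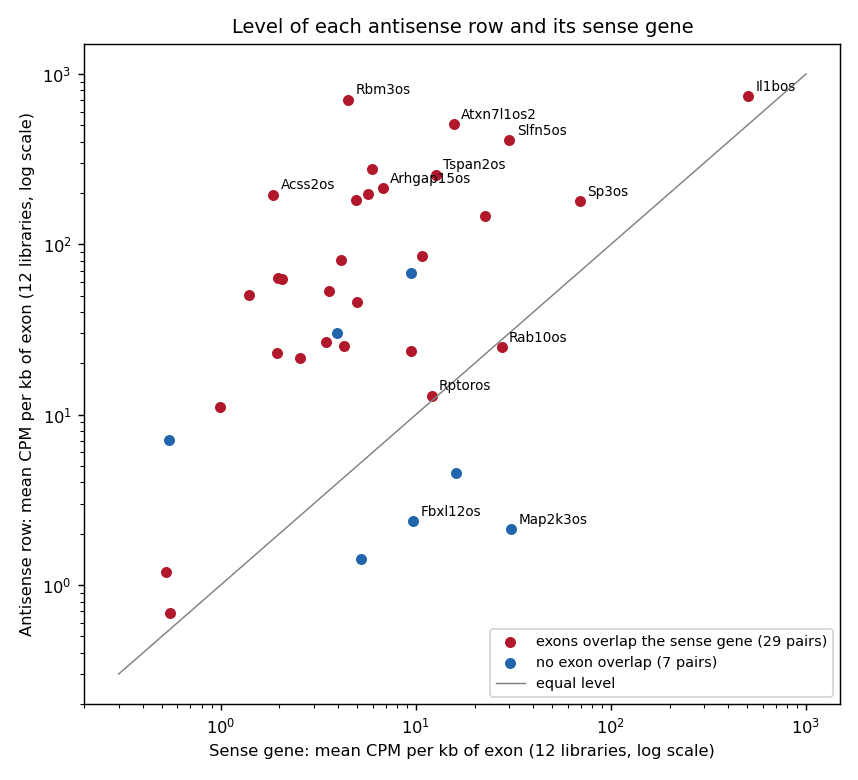
Mean level over 12 libraries, in CPM per kb of exon on log axes, of each antisense row (vertical) against its sense gene (horizontal) for the 36 pairs with known exon lengths, in red where exons overlap and in blue where they do not. In 31 pairs the point lies above the line of equal level, and in 4 of the 5 below it the exons do not overlap.

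LPS changed 10 of the 45 antisense rows in WT libraries (22.2%), of which 3 rose and 7 fell, at a Benjamini-Hochberg adjusted p under 0.05 in limma over all rows. Of all rows, 11.7% were called, 6.72% rising and 4.96% falling. The median log2 change was 0.18 over the members and 0.07 over all rows. In 20 members the WT-LPS and WT-Saline libraries did not overlap, against 30.6% of all rows. Log2 changes are given ± their standard error from this fit, which lets the estimate of spread follow the mean level. Without that trend 8 of the 10 calls were lost, with adjusted p from 0.0631 to 0.233, and those of Slfn5os and Rab11fip4os2 held. When KO-LPS replicate 1 was left out, 14 members were called in WT, against 15.2% of all rows, the further ones being rises of Rab10os, Tbc1d22bos, Zeb2os and Uckl1os.

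Slfn5os (chr11:82942341-82960681, minus strand) faces Slfn5, an interferon-induced member of the Schlafen family. Its level was 240, 252 and 220 CPM in the WT-Saline libraries and 723, 934 and 448 CPM in the WT-LPS libraries. In the KO-labelled libraries it was 186, 282 and 309 CPM with saline and 686, 674 and 457 CPM with LPS. All 6 LPS libraries lay above all 6 saline libraries. Slfn5os rose by 1.5 ± 0.26 in WT (adjusted p = 0.000218) and by 1.23 ± 0.26 in KO-labelled libraries (adjusted p = 0.00751). Slfn5 likewise rose, from 120 ± 13.2 to 319 ± 116 CPM (SD, n = 3) in WT and from 85.0 ± 21.2 to 240 ± 19.0 CPM (SD, n = 3) in KO-labelled libraries. Its log2 changes were 1.35 ± 0.29 in WT (adjusted p = 0.00196) and 1.52 ± 0.29 in KO-labelled libraries (adjusted p = 0.00368). Slfn5os held 65.0% to 82.3% of the reads of the pair in each library. Its call in KO-labelled libraries was lost without KO-Saline replicate 1 (1.01, adjusted p = 0.0599) or KO-LPS replicate 2 (1.14, adjusted p = 0.0771), and without the trend (adjusted p = 0.195). The rises there without KO-LPS replicate 1 were 1.13 ± 0.26 for Slfn5os (adjusted p = 0.00211) and 1.48 ± 0.30 for Slfn5 (adjusted p = 0.000602).

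Rbm3os and Lppos were the other members that rose in WT. Rbm3os had 162, 213 and 186 reads in the WT-Saline libraries against 464, 366 and 508 with LPS, which did not overlap, and 282, 214 and 140 against 226, 425 and 488 reads in the KO-labelled groups, which did. It rose by 1.24 ± 0.26 in WT (adjusted p = 0.00154), a call lost without the trend (adjusted p = 0.088). Rbm3, with 2 to 26 reads per library, had a log2 change of -0.47 ± 0.74 in WT (adjusted p = 0.764), and the difference between the changes of both rows was 1.71 ± 0.59 (adjusted p = 0.239 over 349 opposite-strand pairs). The KO-labelled libraries had 2, 11 and 3 Rbm3 reads with saline and 7, 20 and 26 with LPS. There the difference between both rows had the other sign, at -0.96 ± 0.59 (adjusted p = 0.655). With all libraries neither Rbm3os nor Rbm3 was called in KO-labelled libraries. Without KO-LPS replicate 1 the changes there were 1.10 ± 0.23 for Rbm3os (adjusted p = 0.000786) and 2.26 ± 0.82 for Rbm3 (adjusted p = 0.0668).

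Lppos faces Lpp, a LIM domain protein of focal adhesions. It had 23, 16 and 37 reads in WT-Saline and 70, 41 and 82 in WT-LPS, with no overlap once scaled to library size. Lppos rose by 1.34 ± 0.38 (adjusted p = 0.0171) and Lpp by 1.53 ± 0.44 (adjusted p = 0.0203). The call of Lppos in WT was lost without WT-Saline replicate 2 (1.05, adjusted p = 0.115), WT-LPS replicate 1 (1.16, adjusted p = 0.103) or WT-LPS replicate 3 (1.22, adjusted p = 0.0887), and without the trend (adjusted p = 0.0831).

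Il1bos fell together with Il1b. Its level was 3425, 4101 and 2572 CPM in WT-Saline and 1403, 477 and 353 CPM in WT-LPS. In the KO-labelled libraries it was 1848, 3001 and 2850 CPM in saline and 5738, 345 and 472 CPM in LPS. The WT groups did not overlap. The highest value of all was that of KO-LPS replicate 1, and the other KO-LPS libraries lay below all KO-Saline libraries. The level of Il1b was 1682, 1532 and 1827 CPM with saline and 484, 392 and 245 CPM with LPS in WT. In the KO-labelled libraries it was 811, 1031 and 1291 CPM with saline and 1731, 215 and 339 CPM with LPS, so KO-LPS replicate 1 stood apart there too.

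In WT, Il1bos fell by 2.42 ± 0.58 (adjusted p = 0.00507) and Il1b by 2.22 ± 0.42 (adjusted p = 0.000494). In KO-labelled libraries the changes were -1.36 ± 0.58 for Il1bos (adjusted p = 0.215) and -1.03 ± 0.42 for Il1b (adjusted p = 0.188). Without KO-LPS replicate 1, Il1bos fell there by 2.63 ± 0.30 (adjusted p = 2.03e-08) and Il1b by 1.92 ± 0.23 (adjusted p = 1.14e-07). Il1bos held 54.8% to 76.8% of the reads of the pair in each library. Its WT call was lost without WT-LPS replicate 3 (-2.01, adjusted p = 0.0529) and without the trend (adjusted p = 0.163).

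Rab11fip4os2, which lies inside the gene of the Rab11 effector Rab11fip4 without sharing exon bases with it, had the lowest fitted log2 change among the members called. Fitted values understate the change of low rows, and Bach2os, described below, had the lower ratio of reads. Rab11fip4os2 had 46, 35 and 65 reads in WT libraries with saline and 2, 7 and 3 with LPS. The KO-labelled libraries had 43, 40 and 32 reads with saline and 27, 5 and 7 with LPS. Every saline library lay above every LPS library. Rab11fip4os2 fell by 3.57 ± 0.58 in WT (adjusted p = 8.28e-05) and Rab11fip4 by 2.45 ± 0.41 (adjusted p = 0.000124). In KO-labelled libraries the change of Rab11fip4os2 was -1.88 ± 0.58 (adjusted p = 0.072) with KO-LPS replicate 1 and -2.65 ± 0.57 (adjusted p = 0.000959) without it. Rab11fip4 was not called there with all libraries, and had a change of -0.92 ± 0.44 without KO-LPS replicate 1 (adjusted p = 0.187).

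Tspan2os, which faces the tetraspanin gene Tspan2, had 88, 111 and 89 reads in WT libraries with saline and 21, 29 and 46 with LPS. It had 89, 128 and 85 reads in KO-labelled libraries with saline and 70, 14 and 29 with LPS. In each genotype the LPS and saline libraries did not overlap once scaled. It fell by 1.65 ± 0.40 in WT (adjusted p = 0.00544) and by 1.67 ± 0.40 in KO-labelled libraries (adjusted p = 0.0158). The log2 change in KO-labelled libraries without KO-LPS replicate 1 was -2.33 ± 0.33 (adjusted p = 1.93e-06). Both calls were lost without the trend, with an adjusted p of 0.105 in WT and 0.219 in KO-labelled libraries. The fall in KO-labelled libraries was no longer called without KO-Saline replicate 1 (-1.68, adjusted p = 0.0555), KO-Saline replicate 2 (-1.56, adjusted p = 0.0878), KO-Saline replicate 3 (-1.77, adjusted p = 0.0583), KO-LPS replicate 2 (-1.13, adjusted p = 0.197) or KO-LPS replicate 3 (-1.54, adjusted p = 0.103). Tspan2 fell by 2.09 ± 0.48 in WT (adjusted p = 0.00374), and its change in KO-labelled libraries was -1.54 ± 0.48 (adjusted p = 0.0769) with KO-LPS replicate 1 and -2.19 ± 0.47 (adjusted p = 0.000958) without it. Platelet markers fell with LPS as well, at the levels given above, as did markers of other cells such as Csf1r, Apoe and Clec9a. Whether the cell make-up of the samples had a part in the fall of this pair was not tested.

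Arhgap15os, inside the gene of the Rac GTPase-activating protein Arhgap15, fell from 486 ± 80.7 to 239 ± 17.6 CPM (SD, n = 3) in WT. Its change was -1.01 ± 0.28 (adjusted p = 0.014), beside -1.28 ± 0.42 for Arhgap15 (adjusted p = 0.0444), which also fell. The call of Arhgap15os was lost without WT-Saline replicate 2 (-0.88, adjusted p = 0.0885), WT-LPS replicate 1 (-0.98, adjusted p = 0.0539) or WT-LPS replicate 3 (-0.98, adjusted p = 0.0554), and without the trend (adjusted p = 0.157). In KO-labelled libraries its change was -0.52 ± 0.28 (adjusted p = 0.344), and -0.95 ± 0.23 (adjusted p = 0.00288) without KO-LPS replicate 1.

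The remaining 3 falls in WT were those of Atxn7l1os2, Tomm6os and Bach2os. Atxn7l1os2 fell from 1226 ± 120 to 701 ± 86.1 CPM (SD, n = 3), a change of -0.81 ± 0.21 (adjusted p = 0.00993), and lost its call without WT-Saline replicate 3 (-0.74, adjusted p = 0.0558) or WT-LPS replicate 3 (-0.75, adjusted p = 0.0576), and without the trend (adjusted p = 0.144). Its sense gene Atxn7l1 had a change of -0.41 ± 0.30 (adjusted p = 0.442). Tomm6os fell from 482 ± 75.0 to 277 ± 49.4 CPM (SD, n = 3), by 0.80 ± 0.26 (adjusted p = 0.0425). Leaving out any of the 6 WT or 3 KO-Saline libraries ended that call, with log2 changes from -0.92 to -0.65 and adjusted p from 0.0505 to 0.191, as did a fit without the trend (adjusted p = 0.233).

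Bach2os, opposite the transcription factor gene Bach2, had 10, 6 and 6 reads in WT-Saline and 1, 0 and 0 in WT-LPS. The ratio of LPS to saline reads was 0.0451 (95% counting interval 0.00109 to 0.279), and the fitted difference had an adjusted p of 0.04. Leaving out WT-Saline replicate 1, 2 or 3 or WT-LPS replicate 2 or 3 ended the call, with adjusted p from 0.0722 to 0.147, as did a fit without the trend (adjusted p = 0.0631). The KO-labelled libraries had 3 reads in saline and 5 in LPS.

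In KO-labelled libraries 2 of 45 members were called, the rise of Slfn5os and the fall of Tspan2os, against 3.35% of all rows, 1.99% rising and 1.35% falling. The LPS and saline groups of that genotype did not overlap in 9 members, against 16.6% of all rows. Without KO-LPS replicate 1, which was singled out for its low LPS response, 11 members were called in KO-labelled libraries. Of these 5 rose and 6 fell, against 11.5% of all rows called. The rises were then those of Slfn5os, Rptoros, Rbfaos, Uckl1os and Rbm3os, and the falls those of Rab11fip4os2, Atxn7l1os2, Arhgap15os, Il1bos, Acss2os and Tspan2os. Without KO-Saline replicate 1, 2 or 3 or KO-LPS replicate 3, 1 member was called, and without KO-LPS replicate 2 none was called in limma, with 32 calls over all rows.

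**Figure D2:**
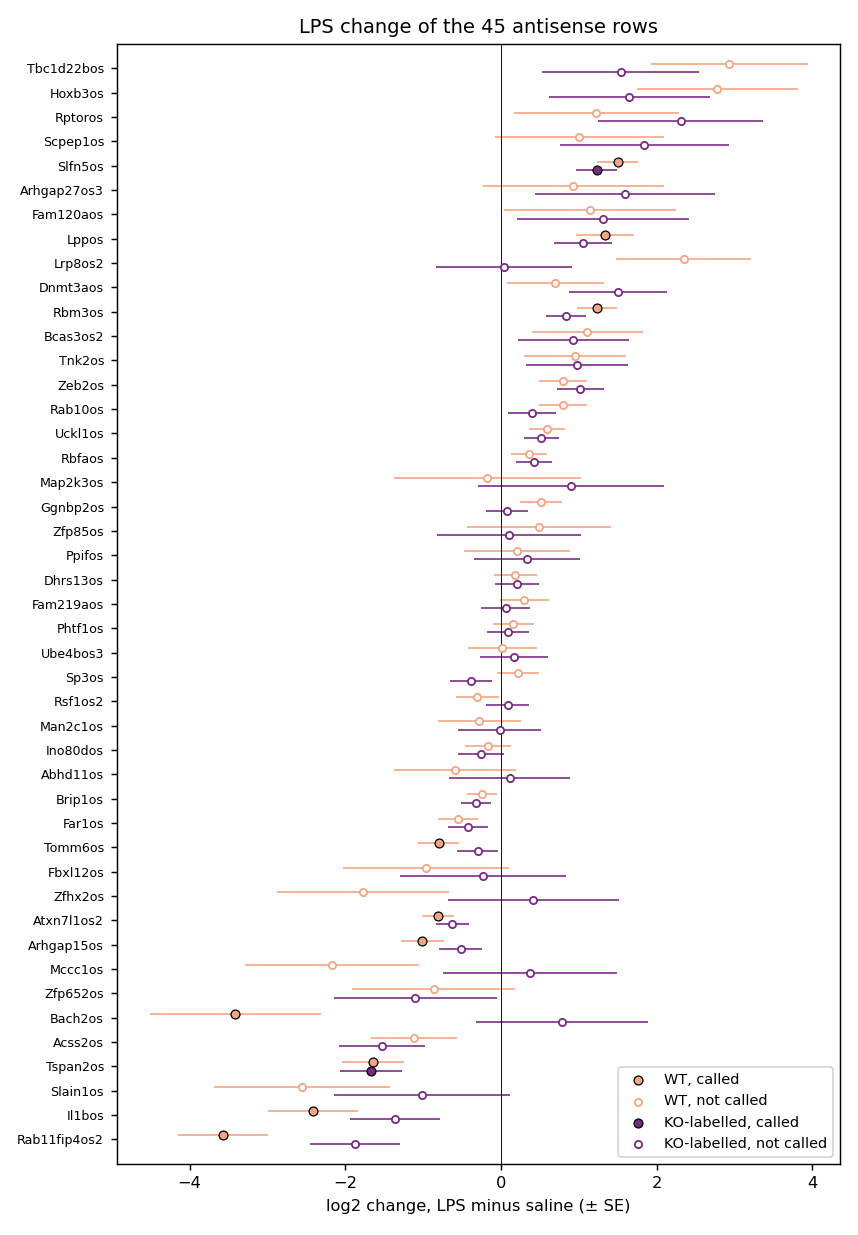
Log2 change of each of the 45 antisense rows, LPS minus saline, in WT (orange) and KO-labelled (purple) libraries, with bars for ± 1 standard error and filled points for an adjusted p under 0.05, ordered by the change averaged over genotypes. Called changes run from -3.57 (Rab11fip4os2) to 1.5 (Slfn5os), and the widest bars belong to rows with few reads, such as Map2k3os.

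Averaged over both genotypes, LPS changed 14 of 45 members (31.1%), 7 up and 7 down, against 16.9% of all rows, 9.86% up and 7.03% down. In 4 members all LPS libraries lay on one side of all saline libraries, against 4.72% of all rows. Beside 9 of the 10 members called in WT (all but Bach2os), the averaged comparison called Zeb2os, Uckl1os, Tbc1d22bos, Hoxb3os and Acss2os. Of the 14 calls, 9 held when each library was left out in turn. Without the mean-variance trend 6 held, those of Slfn5os, Rab11fip4os2, Tspan2os, Rbm3os, Lppos and Hoxb3os. Leaving out KO-LPS replicate 1 gave 21 called members, 12 rising and 9 falling, against 23.8% of all rows. These were the 14 and the rises of Rab10os, Rbfaos, Rptoros, Dnmt3aos and Tnk2os and the falls of Far1os and Slain1os.

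Zeb2os, inside the gene of the zinc finger transcription factor Zeb2, had 68, 96 and 53 reads in WT libraries with saline and 138, 107 and 128 with LPS. The KO-labelled libraries had 41, 42 and 25 reads with saline and 76, 66 and 72 with LPS. Within each genotype the groups did not overlap. Zeb2os rose by 0.91 ± 0.22 (adjusted p = 0.00314), or by 0.85 ± 0.21 (adjusted p = 0.00229) without KO-LPS replicate 1, and lost the call without the trend (adjusted p = 0.0517), while Zeb2 had a log2 change of -0.14 ± 0.23 (adjusted p = 0.748). The antisense share of the pair's reads went from 36.4% ± 8.03 with saline to 54.9% ± 6.58 with LPS in WT and from 32.5% ± 1.34 to 49.1% ± 9.68 in KO-labelled libraries (SD, n = 3). The difference between the changes of both rows was 1.05 ± 0.30 (adjusted p = 0.152 over 349 pairs). It was 1.07 (adjusted p = 0.0115) with voom weights and 1.2 ± 0.29 (adjusted p = 0.051) without KO-LPS replicate 1.

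Uckl1os, opposite the uridine-cytidine kinase-like gene Uckl1, had 134 to 221 reads in saline and 174 to 325 reads in LPS libraries, which overlapped. It rose by 0.55 ± 0.16 (adjusted p = 0.0169) and lost the call without KO-Saline replicate 2 (0.47, adjusted p = 0.0656), KO-LPS replicate 2 (0.50, adjusted p = 0.0549) or KO-LPS replicate 3 (0.51, adjusted p = 0.0511). Acss2os had 53 to 95 reads in saline and 5 to 57 in LPS libraries and fell by 1.32 ± 0.39 (adjusted p = 0.0179). That call was lost without WT-Saline replicate 1 (-1.21, adjusted p = 0.0601), WT-LPS replicate 3 (-1.10, adjusted p = 0.0699), KO-Saline replicate 3 (-1.20, adjusted p = 0.0648) or KO-LPS replicate 3 (-0.78, adjusted p = 0.054). The changes without KO-LPS replicate 1 were 0.66 ± 0.14 for Uckl1os (adjusted p = 0.000531) and -1.64 ± 0.34 for Acss2os (adjusted p = 0.000267). Neither was called without the trend, with an adjusted p of 0.132 and 0.167.

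Tbc1d22bos and Hoxb3os rose from very few reads. Tbc1d22bos had 8, 5 and 0 reads with saline and 30, 15 and 22 with LPS in WT, and 5, 1 and 1 against 2, 12 and 9 in the KO-labelled groups, and its log2 change was 2.23 ± 0.71 (adjusted p = 0.0291). Any of 7 libraries, when left out, ended the call: replicate 3 of WT-Saline and, of the other groups, WT-LPS 1 and 3, KO-Saline 2 and 3 and KO-LPS 2 and 3, with log2 changes from 1.56 to 2.27. Hoxb3os, opposite the homeobox gene Hoxb3, had 3 reads in all 6 saline libraries and 24 in the 6 LPS libraries. The ratio was 7.99 (95% counting interval 2.43 to 41.4), with an adjusted p of 0.0345 for the fitted difference. That call too was ended by any of 7 libraries, replicates 1 and 3 of WT-Saline and WT-LPS, replicate 1 of KO-Saline and replicates 2 and 3 of KO-LPS, with adjusted p up to 0.105. The adjusted p without KO-LPS replicate 1 was 0.00624 for Tbc1d22bos and 0.0189 for Hoxb3os, and without the trend 0.0922 and 0.017.

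For the other calls of the averaged comparison the log2 changes were -2.73 ± 0.41 for Rab11fip4os2, 1.36 ± 0.19 for Slfn5os, -1.66 ± 0.28 for Tspan2os and 1.03 ± 0.18 for Rbm3os. They were 1.2 ± 0.27 for Lppos, -1.89 ± 0.41 for Il1bos, -0.76 ± 0.20 for Arhgap15os and -0.72 ± 0.15 for Atxn7l1os2, all 8 with an adjusted p of at most 0.00603. These changes without KO-LPS replicate 1 were -3.11 for Rab11fip4os2, 1.31 for Slfn5os, -1.99 for Tspan2os, 1.17 for Rbm3os, 1.23 for Lppos, -2.52 for Il1bos, -0.98 for Arhgap15os and -0.82 for Atxn7l1os2, all called. Tomm6os fell by 0.55 ± 0.18 (adjusted p = 0.0386), or by 0.72 ± 0.15 (adjusted p = 0.000371) without that library, a call lost without any library but WT-Saline replicate 3, WT-LPS replicate 3, KO-Saline replicate 2 and KO-LPS replicate 1, with log2 changes from -0.58 to -0.45 among the 8 that ended it.

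**Figure D3:**
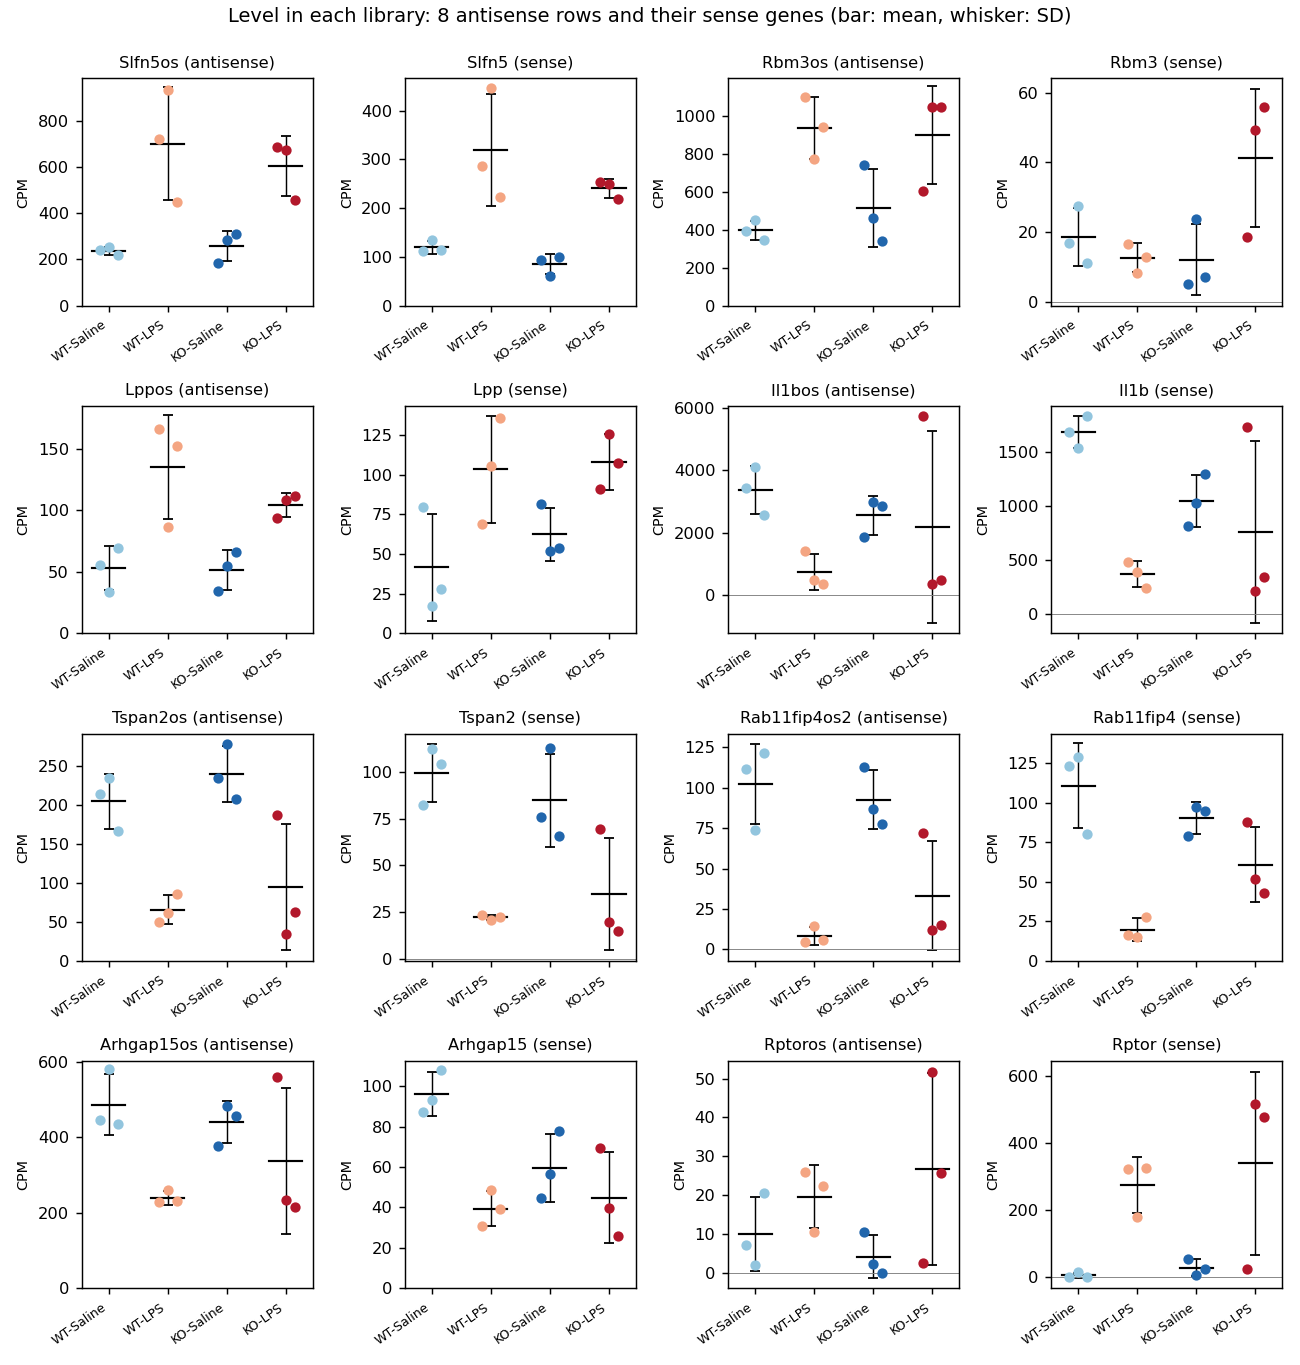
Level in CPM in each of the 12 libraries (points), with group mean (bar) and SD (whisker, n = 3), of 8 antisense rows and, to the right of each, the sense gene. For Il1bos, KO-LPS replicate 1 lies at 5738 CPM while the other KO-LPS libraries lie at 345 and 472 CPM, and Rptor reaches 518 CPM while Rptoros stays at or below 51.8 CPM.

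In WT, 10 of the 38 sense rows were called (26.3%), 4 rising and 6 falling, and in the averaged comparison again 10, 4 rising and 6 falling. In KO-labelled libraries 2 were called, the rises of Slfn5 and Rptor. Both partners were called in 6 pairs in WT, those of Slfn5, Lpp, Il1b, Rab11fip4, Tspan2 and Arhgap15, and all 6 moved in the same direction. The averaged comparison called both partners in 6 pairs as well, again all in the same direction. Both partners were called, without KO-LPS replicate 1, in 7 pairs in WT, 5 in KO-labelled libraries and 9 averaged, each pair in 1 direction. With all libraries the averaged comparison called 8 members whose sense row was not called and 4 sense rows whose antisense row was not, those of Rptor, Zfp652, Rab10 and Fbxl12, and neither partner in 20 pairs.

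The direction of the fitted change was shared by both partners in 30 of 38 pairs in WT (78.9%), 31 in KO-labelled libraries (81.6%) and 30 averaged over genotypes (78.9%). Among the 296 other opposite-strand pairs of a non-coding and a protein-coding row these shares were 70.6%, 68.6% and 72.3%. All 34 of those pairs that had both rows called in the averaged comparison moved in the same direction. For KO-labelled against WT libraries, where no member was called, 21 of 38 pairs shared a direction in saline (55.3%) and 22 in LPS (57.9%).

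**Figure D4:**
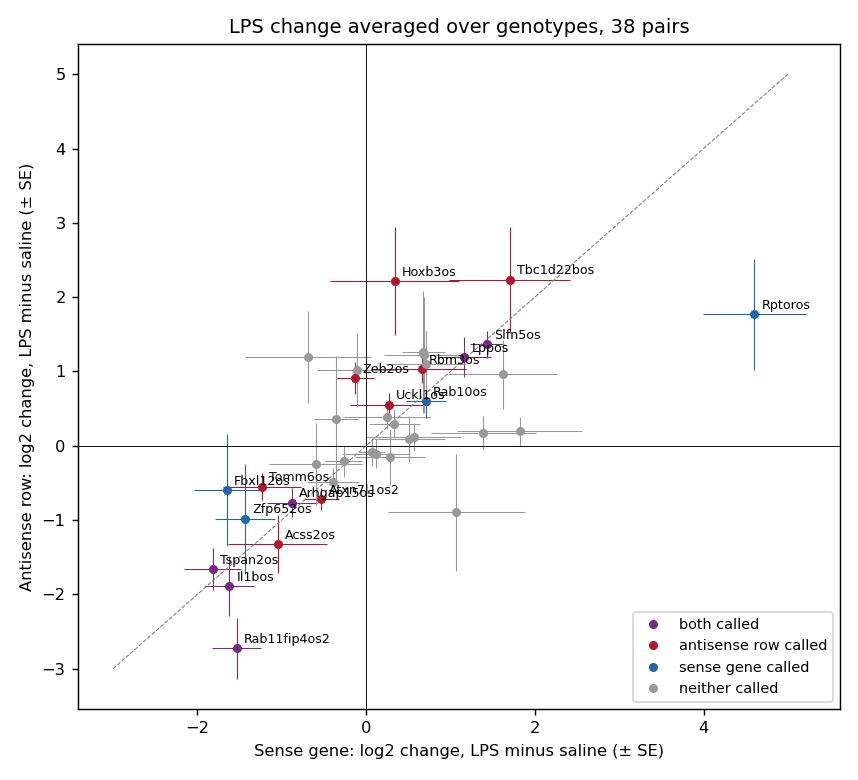
Log2 change, LPS minus saline averaged over genotypes, of the antisense row (vertical) against that of the sense gene (horizontal) for the 38 pairs, with bars for ± 1 standard error and a dashed line of equal change. The 6 pairs with both rows called (purple) lie in the quadrants of shared direction, and Rptoros lies far to the right of the line, where the sense gene changed by 4.60.

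Rptoros lay furthest from its sense gene in WT and averaged over genotypes. Rptor codes for raptor, the scaffold of the growth-regulating kinase complex mTORC1. It had 0, 7 and 1 reads in WT libraries with saline and 136, 85 and 175 with LPS. The KO-labelled libraries had 21, 3 and 10 reads with saline and 9, 210 and 223 with LPS. The WT groups did not overlap, while KO-LPS replicate 1 lay within the KO-Saline range. Rptor rose by 6.15 ± 0.86 in WT (adjusted p = 1.86e-05) and by 3.06 ± 0.86 in KO-labelled libraries (adjusted p = 0.0456), or by 4.49 ± 0.69 (adjusted p = 7.1e-06) without KO-LPS replicate 1.

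Rptoros had 3, 1 and 11 reads with saline and 11, 5 and 12 with LPS in WT, and 4, 1 and 0 against 1, 21 and 12 in the KO-labelled groups. The groups overlapped in both genotypes. Its log2 change was 1.22 ± 1.06 in WT (adjusted p = 0.535) and 1.77 ± 0.75 averaged over genotypes (adjusted p = 0.106). Without KO-LPS replicate 1, which had 1 Rptoros read, the change was 2.31 ± 0.72 averaged over genotypes (adjusted p = 0.0151). In KO-labelled libraries it was then 3.39 ± 1.07 (adjusted p = 0.0314). That library was singled out for its low LPS response, so both p-values are descriptive only. The difference between the changes of both rows was -4.92 ± 1.30 in WT (adjusted p = 0.162), -0.75 ± 1.30 in KO-labelled libraries (adjusted p = 0.94) and -2.83 ± 0.92 averaged (adjusted p = 0.175). In KO-labelled libraries without KO-LPS replicate 1 it was -1.10 ± 1.51 (adjusted p = 0.868). The difference in that genotype was larger for Dhrs13os, at -3.04 ± 0.70 (adjusted p = 0.152), where Dhrs13 had 0 reads with saline and 14 with LPS. The WT difference of Rptoros passed the threshold with voom weights (-4.94, adjusted p = 0.00818) and without WT-Saline replicate 2 (-6.65, adjusted p = 0.00763), which is the saline library with 7 Rptor reads.

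The smallest adjusted p of such a difference in WT was that of Fam219aos and Fam219a. Fam219aos had 39 to 74 reads in WT-Saline and 61 to 79 in WT-LPS, and its log2 change was not called. Fam219a rose from 3, 0 and 3 reads to 20, 9 and 15 (2.97 ± 0.88, adjusted p = 0.0249), a difference between the rows of -2.67 ± 0.61 (adjusted p = 0.105). KO-labelled libraries had 3, 10 and 13 Fam219a reads with saline and 3, 12 and 7 with LPS. The difference between the rows was 0.25 ± 0.61 there (adjusted p = 0.963), so it was not seen in both genotypes. In the fit as described, the ratio of antisense to sense was called in none of the 38 member pairs in any of the 6 contrasts, against 0% of the 349 pairs in 5 contrasts and 0.573% in the averaged comparison. Without KO-LPS replicate 1 the ratio was called in 0 of the 38 in the 3 LPS comparisons and the interaction, beside 0 to 13 of the 349 pairs. For the 6 pairs with both rows called in WT the differences there were 0.15 ± 0.34 for Slfn5os, -0.19 ± 0.60 for Lppos, -0.20 ± 0.46 for Il1bos, -1.13 ± 0.65 for Rab11fip4os2, 0.45 ± 0.38 for Tspan2os and 0.27 ± 0.29 for Arhgap15os. Those of Rab11fip4os2 and Tspan2os exceeded their standard errors, and the one of Rab11fip4os2 averaged over genotypes was -1.19 ± 0.46 (adjusted p = 0.292). These p-values do not show that the partners changed alike.

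Among members that face genes of innate immune signalling, Il1bos is described above and Map2k3os was the other. It had 0, 3 and 0 reads with saline and 2, 0 and 0 with LPS in WT, and 3, 0 and 0 against 2, 0 and 4 in the KO-labelled groups. Map2k3 had 43, 47 and 49 reads in WT with saline and 37, 53 and 32 with LPS, with a log2 change of -0.23 ± 0.37 (adjusted p = 0.772). At these counts no change of Map2k3os was detectable.

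KO-labelled and WT libraries did not differ in any member beyond the threshold. In saline 0 of 45 were called, against 0.0107% of all rows, 3 had an unadjusted p under 0.05 (Zeb2os, Bach2os and Zfhx2os), and the smallest adjusted p was 0.596. In LPS 0 were called, against 0% of all rows, 2 had an unadjusted p under 0.05 (Rab11fip4os2 and Tomm6os), and the smallest adjusted p was 0.891. The groups did not overlap in 3 members in each comparison, against 12.1% of all rows in saline and 9.79% in LPS. Voom weights also called 0 members in both.

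The LPS response itself was compared between genotypes by the interaction, KO-labelled minus WT. It called 0 members, against 0% of all rows, with limma and with voom weights alike. Bach2os and Rab11fip4os2 had an unadjusted p under 0.05, with an adjusted p of 0.773 for the former and, for the latter, a difference of 1.70 ± 0.81 (adjusted p = 0.823). Members called in WT and not in KO-labelled libraries are therefore not shown to respond differently. Without KO-LPS replicate 1 the interaction for Il1bos was -0.22 ± 0.40 (adjusted p = 0.979). That library was singled out for its low LPS response, so this value cannot show that the genotypes responded alike.

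In the fit to all 12 libraries 30 members were called in none of the comparisons. Without KO-LPS replicate 1, 7 of them were called averaged over genotypes: Rbfaos (0.50, adjusted p = 0.00797), Far1os (-0.59, adjusted p = 0.008), Rab10os (0.76, adjusted p = 0.00344), Rptoros as given above, Slain1os (-2.28, adjusted p = 0.0345), Tnk2os (1.23, adjusted p = 0.0427) and Dnmt3aos (1.25, adjusted p = 0.0418). With all libraries, the 3 that belong to the 10 most abundant members had log2 changes of -0.28 ± 0.14 for Brip1os (adjusted p = 0.175), 0.39 ± 0.17 for Rbfaos (adjusted p = 0.104) and -0.49 ± 0.18 for Far1os (adjusted p = 0.0675), all averaged over genotypes. The group also held Dhrs13os, Phtf1os, Ggnbp2os, Rsf1os2, Sp3os, Rab10os, Ino80dos and Fam219aos, at 692 to 1381 reads, and Ube4bos3, Man2c1os, Ppifos, Dnmt3aos, Tnk2os, Lrp8os2 and Bcas3os2, at 107 to 328 reads. The rest had 14 to 86 reads: Abhd11os, Zfp652os, Zfp85os, Rptoros, Arhgap27os3, Fbxl12os, Slain1os, Mccc1os, Zfhx2os, Scpep1os, Map2k3os and Fam120aos. Averaged over genotypes their log2 changes ran from -1.78 (Slain1os) to 1.77 (Rptoros), with a median of 0.19.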

How the data were processed

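Total RNA of blood neutrophils was sequenced in 12 libraries, 3 in each of 4 groups. The authors deposited log2 values for 9374 rows listed by NCBI Gene ID. Whole reads came back from them within 0.0001 for 100% of the values, as log2 CPM with 0.5 reads added. The reads were mapped to mm10, per the submitters' processing notes. Which aligner, counter, annotation and strand setting were used is not given in the sources used here. A count test was not used, since the deposited unit is log2.

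Symbols and gene types came from RefSeq (9372 rows matched) and positions from GENCODE M21 (9299 rows matched). The deposited log2 values were tested with limma 3.58.1 in R 4.3.3, with 4 group means over 12 libraries, a mean-variance trend, two-sided tests and Benjamini-Hochberg adjustment over all rows. This scale understates changes of low rows. The log2 ratio of antisense to sense was fitted likewise over 349 opposite-strand pairs. CPM and reads were computed from the recovered reads, and the code was tested on simulated data. For the calls of Bach2os in WT and Hoxb3os averaged over genotypes, where 1 side had 1 to 3 reads, the ratio of pooled reads is given. Its 95% interval covers counting error only, as the floor of 3 reads does. Without molecular identifiers, reads are not independent molecules.

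The members, lists and tests were chosen with earlier results of these data known. The text names every member called in any comparison, Il1bos and Rptoros, the 10 most abundant members, pairs whose ratio was called, and members facing genes of innate immune signalling. Others, such as Fam219aos and Dhrs13os, were named after their values were seen.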

Additional observations from a re-analysis of the deposited data

How the results depend on the processing

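Each comparison was repeated with 1 choice changed at a time, and no called member reversed its direction in any of these fits. Leaving out each library in turn gave 4 to 14 member calls in WT, 0 to 11 in KO-labelled libraries, 9 to 21 averaged over genotypes, and 0 to 0 for KO-labelled against WT in saline, in LPS and for the interaction. Calls over all rows moved with them, from 734 to 1427 in WT, 32 to 1076 in KO-labelled libraries and 1161 to 2228 averaged. The fewest calls in WT came without WT-LPS replicate 3, with 6 without WT-Saline replicate 2, and the fewest averaged over genotypes without KO-LPS replicate 3. Without the mean-variance trend the member calls were 3 in WT, 0 in KO-labelled libraries and 6 averaged, and 363, 16 and 944 over all rows, against 1095, 314 and 1583 with it. Between the 2 WT groups alone 15 members and 1433 rows were called, and between the 2 KO-labelled groups alone 1 and 82. Voom weights gave 11, 4 and 14 member calls and 1253, 317 and 1707 over all rows. At an adjusted p under 0.1 there were 16, 5 and 17, and 1497, 507 and 2165 over all rows. With the replicate block, which uses the replicate number as a covariate, there were 10, 3 and 15, and 1086, 336 and 1563 over all rows, so the block changed the counts little. Deviations of same-numbered libraries from their group means correlated at -0.0658 to 0.0398, so the numbers were not taken to pair libraries. Median centring gave 10, 2 and 15 calls, log2(CPM + 1) gave 9, 2 and 14, a filter at the 25th percentile gave 9, 2 and 13, and the 35 members with exon overlap gave 9, 2 and 13.

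Calls held in all fits for Slfn5os, Rab11fip4os2, Tspan2os, Rbm3os and Lppos averaged over genotypes and for Slfn5os and Rab11fip4os2 in WT, and for no member in KO-labelled libraries. Ratio calls numbered 0 to 1 over the left-out libraries in WT, in KO-labelled libraries, averaged, and for KO-labelled against WT in saline. They numbered 1 in WT (Rptoros) and 2 averaged (Rptoros and Zeb2os) with voom weights. More reads on the antisense row than on the sense row were found in 25 to 26 of 38 pairs with each library left out. Low read counts limit what can be said of the 13 members with 0 reads in some library. Why the counts move with the trend and with KO-LPS replicate 1 was not tested.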

Other observations

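The 300 bases around the starts of the genes, from 250 before to 50 after, were searched on both strands in the RefSeq table of GRCm38.p6, which held 42 windows for 38 members. The interferon response motif (GAAA, any 2 bases, GAAA) was found in 1 member window (Rab10os), against 3.44% of 32851 windows of all genes. The AP-1 motif TGANTCA was found in 2 (Dnmt3aos and Ppifos), against 7.81%, the kB motif (GGGA, any base, TTTCC) in 0, against 0.41%, and TATAAA in 1 (Mccc1os), against 13.62%. Of the 15 members called in any comparison 14 had a window, and none of these held any of the 4 motifs. Without KO-LPS replicate 1, Rab10os and Dnmt3aos were called too, averaged over genotypes. The 53 windows of the sense genes held 2, 2, 0 and 4. A match is only a description of the letters in the window.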
